A study of Mus musculus with 4 samples.

Results

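Collagens are the main structural proteins of the extracellular matrix, and 44 of the 29179 genes in the deposited table were collagen chain genes, chosen by a gene name made of Col, a type number, the letter a and a chain number. Of these, 42 had at least 1 read, and 30 reached 1 RPM (reads scaled to 1000000 per library) in at least 1 of the 4 libraries and were compared between libraries. RNA was sequenced from YAMC cells, with 1 library per group. This mouse colon line is labelled young adult mouse colonocytes and is conditionally immortalised, growing at the lower temperature with interferon-γ. The groups, each at passages 10 to 12, were Sirt6 siRNA with TNF (siSirt6_TNF), Sirt6 siRNA in medium (siSirt6_medium), control siRNA with TNF (siControl_TNF) and control siRNA in medium (siControl_medium). All cultures received 50 nM siRNA by lipofection. At 48 h after transfection, TNF (100 ng/mL) was added in 2 of them and plain medium in the others, for 24 h. All had been maintained at 33 °C with interferon-γ at 5 U/ml and were shifted to 37 °C without interferon-γ a day after transfection, so this history is shared by the controls. Sirt6 is a nuclear deacylase of chromatin, and TNF is an inflammatory cytokine. The design allows the collagens to be compared with and without TNF and with and without Sirt6 silencing.

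A collagen molecule is a trimer of alpha chains, which may be identical or come from different genes, wound into a helix, cross-linked outside the cell and anchored to cells through integrins and discoidin domain receptors. Fibrillar collagens (types I, II, III, V, XI, XXIV and XXVII) form the fibres of connective tissue, type IV forms the network of basement membranes, and type VI forms beaded filaments around cells. Fibril-associated collagens with interrupted helices (FACITs) sit on fibres, type VII anchors epithelia to the tissue beneath, type VIII forms hexagonal networks, and the multiplexins (types XV and XVIII) lie in basement membrane zones. In the intestine most fibrillar collagen is made by mesenchymal cells, and the basement membrane lies between these and the epithelium.

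The libraries held 21755516 gene-assigned reads for siSirt6_TNF, 23749380 for siSirt6_medium, 18793708 for siControl_TNF and 22422365 for siControl_medium. Sirt6 had 150, 171, 352 and 388 reads in these libraries, so it was 2.65-fold lower with Sirt6 siRNA under TNF and 2.39-fold lower in medium. With 1 library per group there is no replicate error, and no difference between a pair of libraries was tested: each compares libraries, and every interval is a 95% interval of counting error only, without the spread between cultures. The words "rose" and "fell" are used where the ratio was 2 or more in either direction and its interval left out no change (the size rule), and "beyond counting error" for an interval that leaves out no change at any size. Levels are RPM scaled by TMM, a trimmed-mean library correction, and a count of 0 is compatible with up to 3 reads, which is 0.125 to 0.160 normalised RPM. Of 15 epithelial markers only Cdh1, Krt8, Krt18 and Krt19 reached 1 RPM, with a summed level of 1184 to 1811 normalised RPM over the libraries. Epcam had 2 reads in siSirt6_TNF and 0 in the other libraries, and Cdx1, Cldn4 and Car1 had 0 in every library, so these defining colonocyte markers were at or near 0. By contrast 8 of 10 fibroblast markers (1998 to 2309, most of it Vim) and all 3 mesothelial markers Msln, Upk3b and Wt1 (1688 to 2182) reached 1 RPM.

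Promoter windows are printed for 3 groups of genes on which the results turn: the type IV pair Col4a1 and Col4a2, which lie head to head, the type VI pair Col6a1 and Col6a2, which were lower with TNF, and Col1a2 and Col8a2, whose read ratios to their partner chains differed between libraries. Each window runs from 250 bases before to 50 bases after the annotated start, 5′ to 3′ on the gene's strand, from RefSeq on build GRCm38.p6. Capitals mark CCAAT or its reverse complement ATTGG, and GGGCGG or its reverse complement CCGCCC. No CCAAT match overlaps a GGGCGG match in the 6 windows. The positions are chr8:11312777-11313076 (minus strand) for Col4a1, chr8:11312555-11312854 (plus) for Col4a2, chr10:76725995-76726294 (minus) for Col6a1, chr10:76623355-76623654 (minus, 1 of its 2 windows) for Col6a2, chr6:4505368-4505667 (plus) for Col1a2 and chr4:126286544-126286843 (plus) for Col8a2.
Col4a1: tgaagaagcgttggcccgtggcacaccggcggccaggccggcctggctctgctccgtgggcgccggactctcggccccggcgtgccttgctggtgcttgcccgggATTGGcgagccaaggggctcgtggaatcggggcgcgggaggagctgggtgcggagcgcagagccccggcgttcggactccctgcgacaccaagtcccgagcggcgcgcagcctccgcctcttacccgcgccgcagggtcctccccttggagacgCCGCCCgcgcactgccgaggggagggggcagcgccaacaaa
Col4a2: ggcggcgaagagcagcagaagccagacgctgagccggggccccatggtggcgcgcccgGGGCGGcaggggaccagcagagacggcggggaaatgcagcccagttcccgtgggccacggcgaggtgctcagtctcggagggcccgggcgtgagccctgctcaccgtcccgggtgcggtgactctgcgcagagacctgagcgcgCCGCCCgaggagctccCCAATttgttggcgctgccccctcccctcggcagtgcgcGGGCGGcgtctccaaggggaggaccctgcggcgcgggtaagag
Col6a1: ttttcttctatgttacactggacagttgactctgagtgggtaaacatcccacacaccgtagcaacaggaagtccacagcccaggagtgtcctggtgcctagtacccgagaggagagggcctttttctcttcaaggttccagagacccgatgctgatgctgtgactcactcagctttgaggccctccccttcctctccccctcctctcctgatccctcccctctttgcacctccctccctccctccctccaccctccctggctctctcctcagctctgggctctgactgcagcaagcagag
Col6a2: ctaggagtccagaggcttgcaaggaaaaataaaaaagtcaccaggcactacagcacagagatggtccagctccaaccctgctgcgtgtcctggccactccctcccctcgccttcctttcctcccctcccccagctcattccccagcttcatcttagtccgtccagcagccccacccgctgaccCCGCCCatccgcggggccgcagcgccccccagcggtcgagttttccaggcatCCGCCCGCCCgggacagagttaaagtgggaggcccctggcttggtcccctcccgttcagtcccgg
Col1a2: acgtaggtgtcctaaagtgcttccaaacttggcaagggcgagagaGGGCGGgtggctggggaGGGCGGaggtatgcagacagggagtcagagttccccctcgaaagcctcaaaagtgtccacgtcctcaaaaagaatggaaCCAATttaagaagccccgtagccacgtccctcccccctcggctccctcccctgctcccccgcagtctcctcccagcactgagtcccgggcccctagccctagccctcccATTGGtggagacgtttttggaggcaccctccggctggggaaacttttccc
Col8a2: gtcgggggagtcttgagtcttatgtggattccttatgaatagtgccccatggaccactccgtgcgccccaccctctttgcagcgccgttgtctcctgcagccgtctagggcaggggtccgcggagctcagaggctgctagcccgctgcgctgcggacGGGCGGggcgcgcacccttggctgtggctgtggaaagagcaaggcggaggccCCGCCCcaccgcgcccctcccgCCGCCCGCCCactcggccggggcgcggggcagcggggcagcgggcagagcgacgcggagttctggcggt
The Col4a1 and Col4a2 windows share 78 bases, read on opposite strands, and both were rich in CpG, with 37 and 33 CpG sites against a median of 7 over all 32851 windows. Each held CCAAT once on either strand. The Col6a1 window held 3 CpG sites and neither motif, whereas the printed Col6a2 window held 16 CpG sites and GGGCGG 3 times, with 2 of its matches overlapping. The other Col6a2 window, not printed, held 6 CpG sites, 1 GGGCGG match and no CCAAT match. In the Col1a2 window each motif occurred 2 times, and in the Col8a2 window GGGCGG occurred 4 times, again with 2 matches overlapping, and CCAAT did not occur. Windows were matched for 35 of the 44 collagens, 38 windows in all; Col1a1, Col2a1, Col4a3, Col5a2, Col9a3, Col12a1, Col14a1, Col22a1 and Col26a1 were not matched. Of the 38, 13 (34.2%) held CCAAT, against 37.4% of all windows, and 23 (60.5%) held GGGCGG, against 35.7%. These matches describe the letters of the windows and are not evidence of binding.

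Collagen reads were 0.721% of all reads in siSirt6_TNF (95% exact binomial interval 0.717 to 0.724), 0.855% in siSirt6_medium (0.851 to 0.859), 0.715% in siControl_TNF (0.711 to 0.719) and 0.827% in siControl_medium (0.824 to 0.831). Both TNF libraries were thus below both medium libraries, and under either treatment the Sirt6 siRNA library was the higher. Col1a1 alone took 39.2% of the collagen reads in siSirt6_TNF, 40.6% in siSirt6_medium, 37.0% in siControl_TNF and 39.2% in siControl_medium. Only 11 collagens averaged 100 normalised RPM or more and 16 averaged 20 RPM or more. Per kilobase of the longest coding transcript, the mean levels over the 4 libraries ranked Col1a1 first (513 normalised RPM per kb), then Col5a2 (203), Col4a1 (119), Col3a1 (96.9), Col6a1 (81.9), Col4a2 (67.1), Col16a1 (39.7), Col5a1 (38.5), Col4a5 (36.1) and Col6a2 (25.1).

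The fibrillar class had all 11 of its genes among those compared and held 70.6% of collagen reads in siSirt6_TNF, 71.8% in siSirt6_medium, 66.0% in siControl_TNF and 68.3% in siControl_medium. The type IV class (6 of 6 compared) held 19.3% in siSirt6_TNF, 16.1% in siSirt6_medium, 23.9% in siControl_TNF and 20.5% in siControl_medium. The 2 classes moved in opposite directions in these within-library shares: the fibrillar share was higher and the type IV share lower in each Sirt6 siRNA library than in the control siRNA library of the same treatment, and the type IV share was higher with TNF under each siRNA. Within each class, no library's 95% interval overlapped another's. The shares are parts of the same total and these 2 classes hold most of it, so opposite movement was largely built in. The median log2 ratio of the type IV genes for TNF was -0.10 with Sirt6 siRNA and -0.06 with control siRNA, although their share was higher. Beaded filament genes (3 of 6 compared) held 5.03% in siSirt6_TNF, 6.96% in siSirt6_medium, 4.94% in siControl_TNF and 6.12% in siControl_medium. FACIT genes (5 of 9) held between 4.17% and 4.42%, multiplexins (2 of 2) between 0.334% and 0.584%, and hexagonal network genes (2 of 3) between 0.292% and 0.399%. Type VII, the anchoring fibril, held 0.0133% to 0.0280%. None of the 4 transmembrane collagens and neither of the 2 unclassed ones was compared. The 14 genes left out had at most 20 reads in any library, a value reached by Col26a1, and Col13a1 and Col25a1 had no read.

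**Figure D1:**
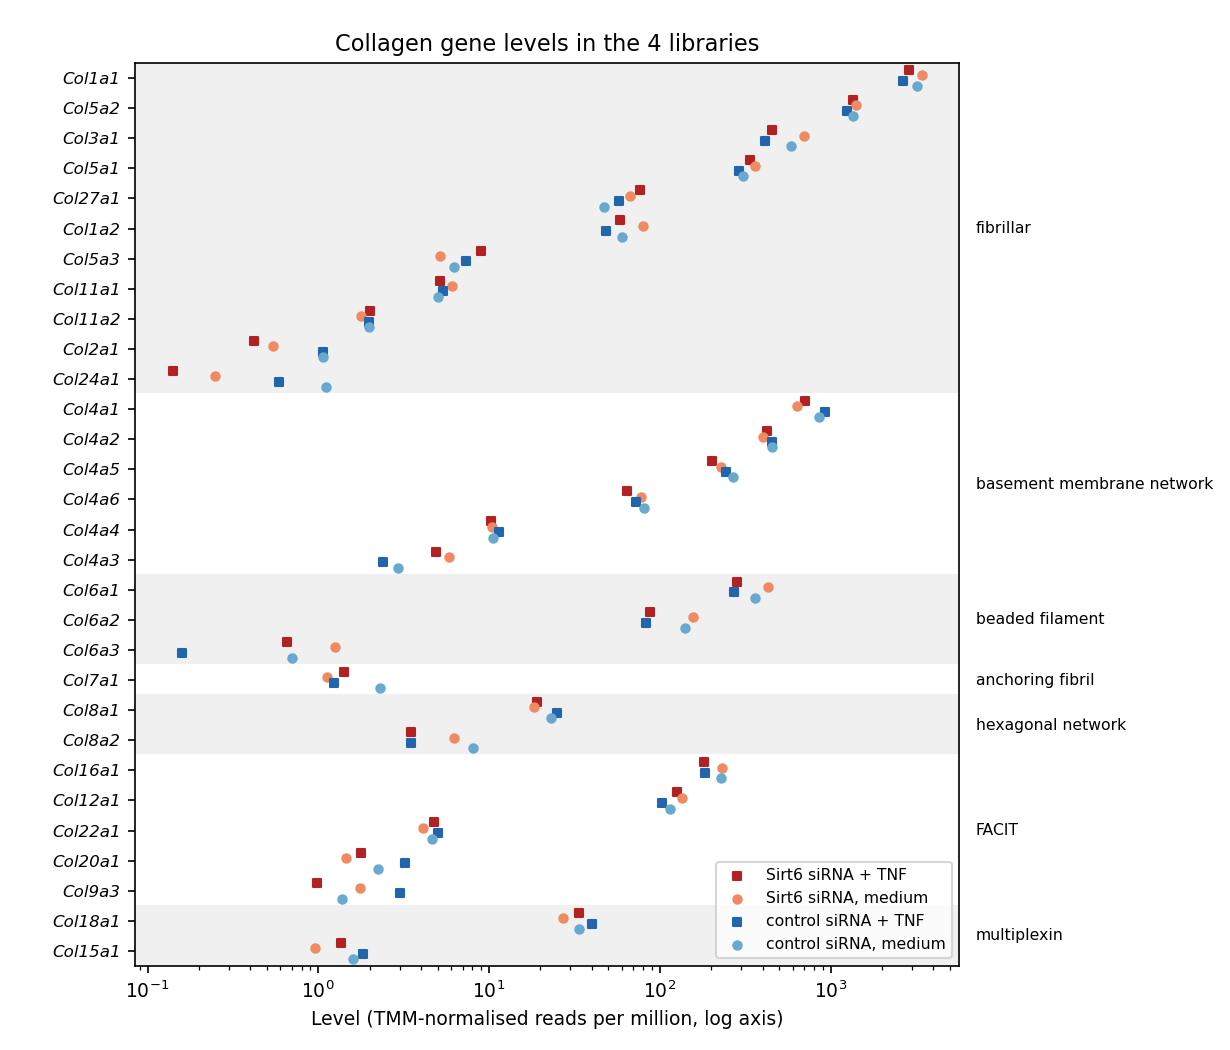
Levels of the 30 compared collagens in the 4 libraries, in TMM-normalised RPM on a log axis, grouped by class; each point is 1 library, squares are TNF and circles medium. Col1a1 is highest at 2656 to 3431 and Col24a1 reaches the lowest value, 0.141 in the library with Sirt6 siRNA and TNF.

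Most collagens differed by less than 2-fold with TNF, in both directions. By the size rule no collagen rose or fell with Sirt6 siRNA, where 2.17% of all 15274 genes compared rose and 1.49% fell. With control siRNA 1 rose (Col9a3) and 2 fell (Col8a2 and Col6a3), where 2.29% of genes rose and 1.24% fell. No collagen passed in both TNF comparisons, as 1.62% of genes did upward and 0.524% downward. Beyond counting error, 12 of the 30 were lower in both TNF comparisons (14.7% of all genes were) and 3 were higher in both (14.6%). The median log2 ratio of the 30 collagens was -0.14 with Sirt6 siRNA and -0.10 with control siRNA, against -0.01 and -0.00 over all genes compared. In bulk RNA a smaller share of cells of one kind and less RNA per cell cannot be told apart.

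Type VI, III and I chains were lower with TNF under both siRNAs. Col6a2, an alpha chain of type VI collagen, had 87.7 normalised RPM in siSirt6_TNF, against 156 in siSirt6_medium, and 83.5 in siControl_TNF, against 140.1 in siControl_medium. Both TNF libraries lay well below both medium libraries, by 1.78-fold with Sirt6 siRNA (log2 -0.83, -0.91 to -0.75) and 1.68-fold with control siRNA (log2 -0.75, -0.84 to -0.66). Col6a1, its partner chain, had 281 normalised RPM in siSirt6_TNF, against 431 in siSirt6_medium, and 271 in siControl_TNF, against 360.1 in siControl_medium. It was 1.53-fold lower with TNF in the Sirt6 siRNA libraries and 1.33-fold lower in the control siRNA libraries, a difference of responses of -0.20 (-0.27 to -0.13) on the log2 scale, short of the size rule for a difference. Col3a1, the type III chain, had 455 in siSirt6_TNF, against 699.8 in siSirt6_medium, and 413 in siControl_TNF, against 589 in siControl_medium. This was 1.54-fold and 1.43-fold lower with TNF under Sirt6 siRNA and control siRNA.

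The type I chains took part as well. Col1a1 had 2877 normalised RPM in siSirt6_TNF, against 3431 in siSirt6_medium, and 2656 in siControl_TNF, against 3212 in siControl_medium. Its ratio was 1.19-fold lower with TNF under Sirt6 siRNA and 1.21-fold lower under control siRNA. Col1a2 had 58.5 in siSirt6_TNF, against 80.3 in siSirt6_medium, and 48.3 in siControl_TNF, against 60.3 in siControl_medium, which was 1.37-fold and 1.25-fold lower. The FACIT gene Col16a1 was 1.28-fold lower with TNF under Sirt6 siRNA (181 in siSirt6_TNF against 231 in siSirt6_medium) and 1.24-fold lower under control siRNA (185 in siControl_TNF against 229 in siControl_medium). Smaller ratios in the same direction, all beyond counting error under both siRNAs, were found for Col12a1, another FACIT (log2 -0.10 with Sirt6 siRNA and -0.16 with control siRNA), Col4a5 (-0.17 and -0.14), Col4a6 (-0.28 and -0.15), Col5a1 (-0.08 and -0.07) and Col5a2 (-0.06 and -0.12).

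Col4a1, Col18a1 and Col27a1 were higher with TNF under both siRNAs. Col4a1, the main chain of type IV collagen, had 713 normalised RPM in siSirt6_TNF, against 636 in siSirt6_medium, and 929 in siControl_TNF, against 861 in siControl_medium. The TNF library was the higher of each pair, by 1.12-fold with Sirt6 siRNA and 1.08-fold with control siRNA. Col4a2, which forms the common type IV trimer with Col4a1, was near even, at 423 in siSirt6_TNF against 403 in siSirt6_medium and 454 in siControl_TNF against 452 in siControl_medium. Col18a1, whose C-terminal fragment is endostatin, had 33.5 in siSirt6_TNF, against 27.2 in siSirt6_medium, and 40.1 in siControl_TNF, against 33.5 in siControl_medium. Its ratios were 1.23-fold and 1.20-fold. The fibrillar Col27a1 had 76.9 in siSirt6_TNF, against 66.6 in siSirt6_medium, and 57.4 in siControl_TNF, against 47.1 in siControl_medium, or 1.15-fold and 1.22-fold higher. It was the only fibrillar chain above 20 RPM that was higher with TNF.

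**Figure D2:**
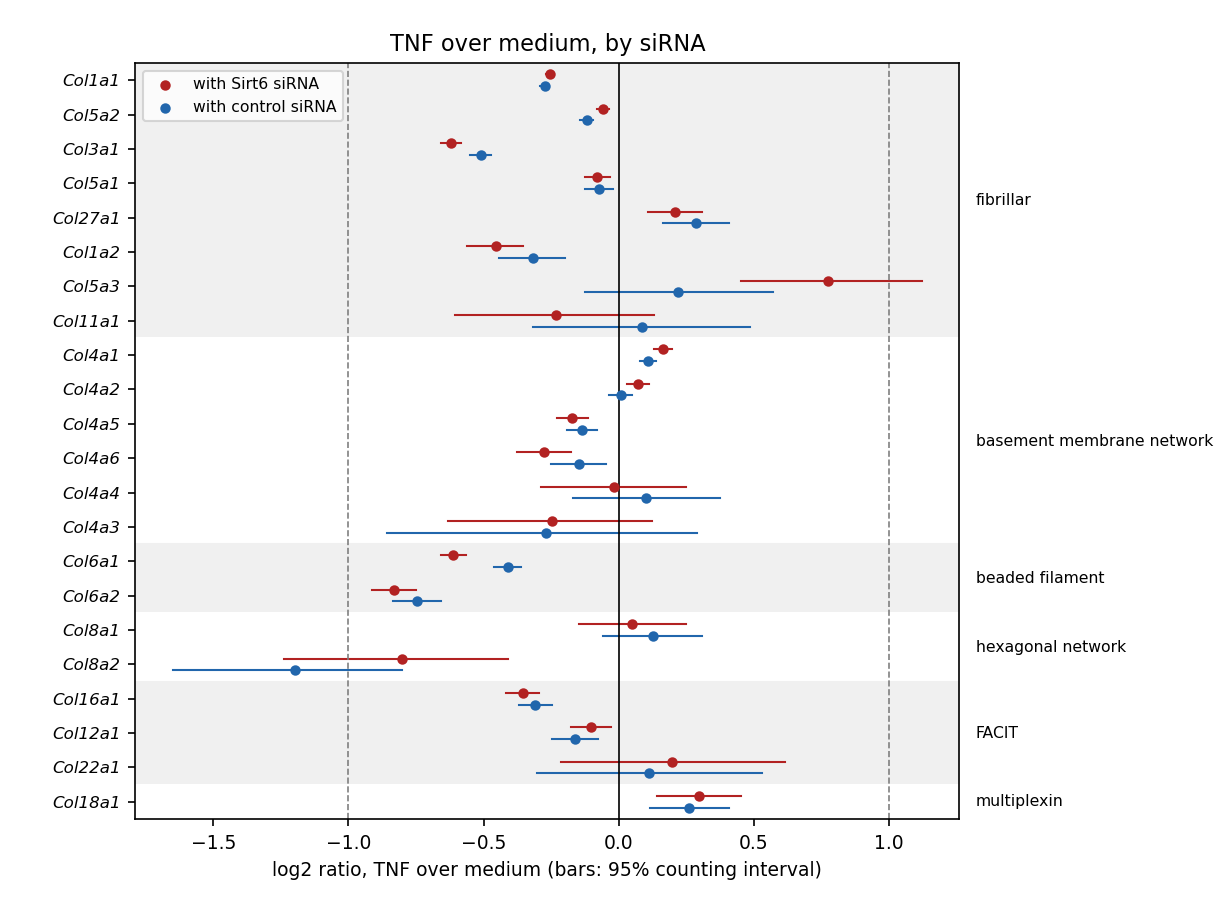
The log2 ratio of the TNF library to the medium library for the 22 collagens averaging 4 RPM or more, by class, with Sirt6 siRNA (red) and control siRNA (blue); bars are 95% counting intervals and dashed lines mark a ratio of 2. Col6a1, Col6a2, Col3a1 and Col8a2 lie to the left under both siRNAs, and Col4a1, Col18a1 and Col27a1 to the right.

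Col8a2, a chain of the hexagonal type VIII network, was the most deeply read of the collagens past the size rule for TNF. It had 75 reads in siSirt6_TNF, against 149 in siSirt6_medium, and 65 in siControl_TNF, against 183 in siControl_medium. It fell 2.29-fold with control siRNA (log2 -1.20, -1.65 to -0.80) and was 1.74-fold lower with Sirt6 siRNA (log2 -0.80, -1.24 to -0.41), short of the rule. Its partner Col8a1 was near even, with 19.1 normalised RPM in siSirt6_TNF, against 18.4 in siSirt6_medium, and 25.0 in siControl_TNF, against 23.0 in siControl_medium. The remaining calls rest on few reads. Col6a3, the large chain of the classical type VI trimer, had 14 reads in siSirt6_TNF, 30 in siSirt6_medium, 3 in siControl_TNF and 16 in siControl_medium, and its log2 ratio for TNF was -1.66 (-4.56 to -0.34) with control siRNA and -0.84 (-1.96 to 0.03) with Sirt6 siRNA. Col9a3, a FACIT chain, had 21 reads in siSirt6_TNF, 42 in siSirt6_medium, 56 in siControl_TNF and 31 in siControl_medium. It rose with control siRNA (log2 1.08, 0.47 to 1.81) and had a log2 ratio of -0.77 (-1.66 to -0.04) with Sirt6 siRNA.

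Of the 30 compared collagens, 25 were at 1 RPM or more in every library, and the other 5 (Col2a1, Col6a3, Col9a3, Col15a1 and Col24a1) passed that filter through only some libraries. Of the 7 collagens past the size rule in any comparison or in the difference of responses, 4 are among these 5. None of the 16 collagens averaging 20 RPM or more passed it anywhere. Few of the 8147 genes at that level did. With TNF 131 rose and 26 fell under control siRNA, and 152 rose and 31 fell under Sirt6 siRNA. With silencing 0 rose under either treatment, 2 fell in medium and 1 fell under TNF, and 0 passed for the difference.

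With Sirt6 silencing most collagens again differed by less than 2-fold, in both directions. By the size rule, under TNF 2 rose (Col4a3 and Col6a3) and 3 fell (Col9a3, Col2a1 and Col24a1), where 0.393% of all genes rose and 0.655% fell. In medium none rose and 1 fell (Col24a1), where 0.491% rose and 0.524% fell. Col24a1 was the 1 collagen that fell in both, as did 0.118% of all genes. It was kept only through siControl_medium, where it reached 1.11 RPM, so the filter favoured its fall in medium. None rose in both, as 0.0524% did. Beyond counting error, 9 of the 30 were higher in both comparisons (6.09% of all genes were) and 6 were lower in both (5.31%). The median log2 ratio of the 30 was -0.01 under TNF and -0.04 in medium, against -0.00 and 0.00 over all genes.

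All 6 fibrillar chains averaging 20 RPM or more were higher with Sirt6 siRNA under both treatments, beyond counting error each time. Col27a1, whose levels are given above, had the largest ratios, 1.34-fold under TNF (log2 0.42, 0.31 to 0.53) and 1.41-fold in medium (log2 0.50, 0.39 to 0.61). Col1a2, the second type I chain, was 1.21-fold higher under TNF (58.5 in siSirt6_TNF against 48.3 in siControl_TNF) and 1.33-fold higher in medium (80.3 in siSirt6_medium against 60.3 in siControl_medium). Col5a1, a type V chain that helps to set fibril diameter, had 339.5 normalised RPM in siSirt6_TNF, against 290.4 in siControl_TNF, and 359 in siSirt6_medium, against 306 in siControl_medium. Both ratios were 1.17-fold. Col3a1 was 1.10-fold higher under TNF and 1.19-fold higher in medium, Col1a1 1.08-fold and 1.07-fold, and Col5a2, the partner of Col5a1, 1.08-fold and 1.04-fold. For Col5a2 the levels were 1359.8 in siSirt6_TNF, against 1255 in siControl_TNF, and 1416 in siSirt6_medium, against 1362 in siControl_medium.

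Of the 4 type IV chains averaging 20 RPM or more, 3 were lower in both comparisons, beyond counting error. Col4a1 had 713 normalised RPM in siSirt6_TNF, against 929 in siControl_TNF, and 636 in siSirt6_medium, against 861 in siControl_medium. Both Sirt6 siRNA libraries were below both control siRNA libraries, by 1.30-fold under TNF (log2 -0.38, -0.41 to -0.35) and 1.35-fold in medium (log2 -0.44, -0.47 to -0.41). Col4a2 was 1.07-fold lower under TNF and 1.12-fold lower in medium. Col4a5, a chain found in specialised basement membranes, had 202 in siSirt6_TNF, against 245 in siControl_TNF, and 228 in siSirt6_medium, against 269 in siControl_medium, or 1.21-fold and 1.18-fold lower. Col4a6, its neighbour, was 1.14-fold lower under TNF (64.3 in siSirt6_TNF against 73.1 in siControl_TNF) and had an interval that held no change in medium (77.9 in siSirt6_medium against 81.0 in siControl_medium). The multiplexin Col18a1 was 1.20-fold lower under TNF and 1.23-fold lower in medium, and Col8a1 1.31-fold and 1.25-fold lower.

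Col4a3, a chain of the collagen IV network of glomerular and alveolar basement membranes, was the type IV exception. It had 105 reads in siSirt6_TNF, against 45 in siControl_TNF, and 141 in siSirt6_medium, against 66 in siControl_medium. Both Sirt6 siRNA libraries were above both control siRNA libraries, by 2.01-fold under TNF (log2 1.01, 0.52 to 1.57), just past the size rule, and 1.98-fold in medium (log2 0.99, 0.58 to 1.45), just short of it. With library totals in place of TMM the value under TNF was 0.98, and the call was lost. Col4a4, encoded head to head with Col4a3, had 10.2 normalised RPM in siSirt6_TNF, against 11.4 in siControl_TNF, and 10.4 in siSirt6_medium, against 10.6 in siControl_medium, and differed within counting error. By the GENCODE annotation 5.65% of Col4a3 exon sequence overlaps a gene on the opposite strand, and the strand setting of the counts is not given in the sources used here.

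**Figure D3:**
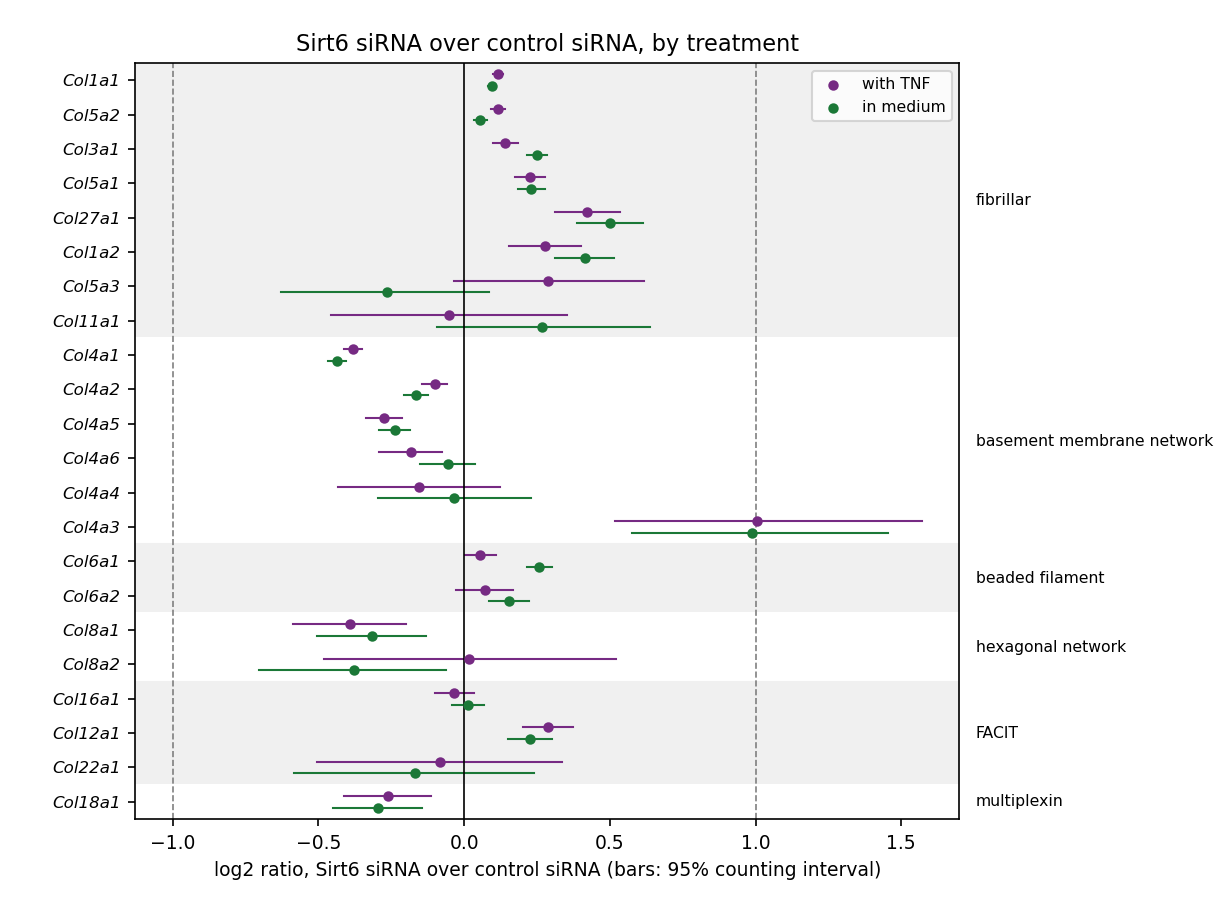
The log2 ratio of the Sirt6 siRNA library to the control siRNA library for the 22 collagens averaging 4 RPM or more, by class, with TNF (purple) and in medium (green); bars are 95% counting intervals and dashed lines mark a ratio of 2. The first 6 fibrillar chains lie to the right of 0, Col4a1, Col4a2 and Col4a5 to the left, and Col4a3 near the dashed line.

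Among the other classes, Col12a1, a FACIT of connective tissue fibres, was higher with Sirt6 siRNA by 1.22-fold under TNF (126 in siSirt6_TNF against 103 in siControl_TNF) and 1.17-fold in medium (135 in siSirt6_medium against 115 in siControl_medium). Col16a1 differed within counting error under both treatments. Col6a1 was 1.20-fold higher in medium (431 in siSirt6_medium against 360.1 in siControl_medium) and 1.04-fold higher under TNF (281 in siSirt6_TNF against 271 in siControl_TNF), where its interval no longer left out no change once library totals replaced TMM. Col24a1, a fibrillar chain, had 3 reads in siSirt6_TNF, against 11 in siControl_TNF, and 6 in siSirt6_medium, against 25 in siControl_medium. Its log2 ratio was -1.55 (-4.54 to -0.14) under TNF and -1.81 (-3.72 to -0.83) in medium. Col2a1, the cartilage fibrillar chain, had 9 reads in siSirt6_TNF, against 20 in siControl_TNF (log2 -1.18, -2.66 to -0.14), and 13 in siSirt6_medium, against 24 in siControl_medium (log2 -0.86, -2.07 to 0.06). Col2a1 was kept only through the control siRNA libraries (1.06 RPM in siControl_TNF and 1.07 in siControl_medium), so the filter favoured its fall with Sirt6 siRNA. Col6a3 rose under TNF (log2 1.57, 0.19 to 4.47) and Col9a3 fell (log2 -1.52, -2.40 to -0.86). The siControl_TNF library, in which Col6a3 had 3 reads and Col9a3 its highest count, enters both their TNF and their silencing calls.

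Counting intervals narrow with depth, so the collagens averaging 20 RPM or more were also set beside the 8147 genes above that level. This limit was chosen after the data were seen and does not match depth above it. Among the collagens above it, 11 averaged 100 normalised RPM or more, and they were not set beside genes of like depth. Of these 16 collagens, 11 were lower and 3 higher in both TNF comparisons, where 19.5% and 22.9% of the well-read genes were. With Sirt6 siRNA, 8 were higher and 5 lower in both, where 9.59% and 7.92% were. The pairs of comparisons for each factor have no library in common. Across the 16 collagens the log2 ratios for TNF with Sirt6 siRNA and with control siRNA had a Pearson correlation of 0.97, with the same sign in all 16, against 0.92 and 79.4% over the well-read genes. For silencing under TNF and in medium the correlation was 0.95, with the same sign in 15, against 0.54 and 64.3%. Over all 30 compared collagens the values were 0.51 for TNF and 0.68 for silencing. These are descriptions across genes, which are not independent replicates and share libraries and depth. Across the 16, the Spearman correlation of the silencing ratio with transcript GC content was -0.003 under TNF and 0.015 in medium, and that with transcript length was 0.33 and 0.02. For TNF the correlation with length was 0.50 with Sirt6 siRNA and 0.48 with control siRNA, and its part in the result was not tested.

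The difference of the TNF responses (Sirt6 siRNA minus control siRNA) passed a size of 1 on the log2 scale for 1 collagen upward, Col7a1, where 0.596% of all genes did, and for 1 downward, Col9a3, where 1.08% did. The median over the 30 collagens was 0.01, as over all genes. Col7a1, the anchoring fibril chain, had 30 reads in siSirt6_TNF, 27 in siSirt6_medium, 23 in siControl_TNF and 52 in siControl_medium. The siControl_medium library stands above the other libraries, and the difference was 1.16 (0.18 to 2.23). For Col9a3 it was -1.85 (-2.91 to -0.95). Among well-read collagens the differences were small: besides Col6a1, Col3a1 had -0.11 (-0.16 to -0.05) and Col5a2 0.06 (0.03 to 0.09). Col5a3, the minor type V chain, was 1.71-fold higher with TNF under Sirt6 siRNA (191 reads in siSirt6_TNF against 125 in siSirt6_medium). Under control siRNA its ratio was 1.16-fold (137 reads in siControl_TNF against 142 in siControl_medium, in libraries of different size). That log2 ratio of 0.22 had an interval that held no change (-0.13 to 0.57). The difference of responses was 0.55 (0.09 to 1.03).

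Ratios of chains that assemble together were read within each library, where no scaling between libraries enters. Type I collagen is mainly assembled from both Col1a1 and Col1a2 chains. Col1a1 had 49.2 times the reads of Col1a2 in siSirt6_TNF (46.5 to 52.0), 42.7 times in siSirt6_medium (40.9 to 44.7), 55.0 times in siControl_TNF (51.5 to 58.8) and 53.3 times in siControl_medium (50.5 to 56.3). Per kilobase of the longest coding transcript the ratios were 44.3, 38.5, 49.6 and 48.1 in the same libraries. The siSirt6_medium ratio was the lowest and lay outside the intervals of the other libraries.

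Col4a1 had 1.68 times the reads of Col4a2 in siSirt6_TNF (1.64 to 1.73), 1.58 times in siSirt6_medium (1.54 to 1.62), 2.05 times in siControl_TNF (1.99 to 2.10) and 1.91 times in siControl_medium (1.86 to 1.95). No interval overlapped another, and both Sirt6 siRNA libraries were below both control siRNA libraries although the genes lie head to head. The other head-to-head pairs are Col4a3 with Col4a4 and Col4a5 with Col4a6. Col4a3 had 0.482 times the reads of Col4a4 in siSirt6_TNF (0.378 to 0.611) and 0.566 times in siSirt6_medium (0.457 to 0.699), against 0.211 in siControl_TNF (0.150 to 0.293) and 0.275 in siControl_medium (0.206 to 0.362). The Sirt6 siRNA intervals did not overlap those of control siRNA. Col4a5 had 3.15 times the reads of Col4a6 in siSirt6_TNF (2.96 to 3.35), 2.93 in siSirt6_medium (2.78 to 3.08), 3.35 in siControl_TNF (3.15 to 3.56) and 3.32 in siControl_medium (3.15 to 3.50). The siSirt6_TNF interval overlapped those of the other libraries, and the siSirt6_medium interval lay below both control siRNA intervals.

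Col5a2 had 4.0 times the reads of Col5a1 in siSirt6_TNF, 3.95 in siSirt6_medium, 4.32 in siControl_TNF and 4.46 in siControl_medium, and per kilobase 5.08, 5.01, 5.48 and 5.65 times. Col6a1 had 3.21 times the reads of Col6a2 in siSirt6_TNF (3.05 to 3.38), 2.76 in siSirt6_medium (2.66 to 2.87), 3.24 in siControl_TNF (3.06 to 3.44) and 2.57 in siControl_medium (2.47 to 2.68). This ratio was higher in both TNF libraries than in both medium libraries. Against it, Col6a3 reached only 3 to 30 reads per library beside 5071 to 10356 of Col6a1. Col8a1 had 5.43 times the reads of Col8a2 in siSirt6_TNF (4.23 to 7.04), against 2.97 in siSirt6_medium (2.46 to 3.60), and 7.22 in siControl_TNF (5.56 to 9.50), against 2.84 in siControl_medium (2.40 to 3.38). Its intervals with and without TNF did not overlap under either siRNA. Col11a1 had 2.53 to 3.40 times the reads of Col11a2, with overlapping intervals in all 4 libraries.

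**Figure D4:**
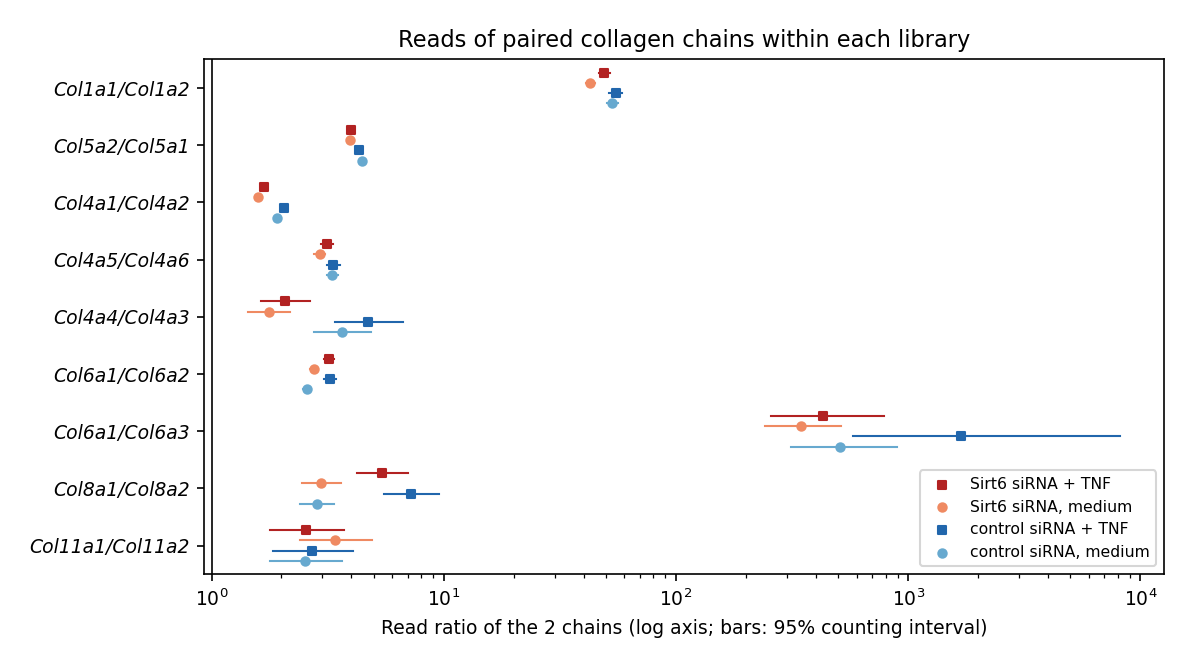
The read ratio of 9 chain pairs in each library on a log axis, with 95% counting intervals; squares are TNF, circles medium, red and orange Sirt6 siRNA, blue control siRNA. Col1a1 exceeds Col1a2 by 42.7 to 55.0 times, Col8a1 over Col8a2 is higher with TNF (squares) under both siRNAs, and Col4a4 over Col4a3 is lower with Sirt6 siRNA.

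Of the genes that act on collagen chains inside the cell, none of 14 compared genes for prolyl and lysyl modification and none of 15 for procollagen folding and export passed the size rule in any comparison. Few genes of any kind did: with TNF 2.17% of all genes rose and 1.49% fell under Sirt6 siRNA, and 2.29% and 1.24% under control siRNA. With silencing 0.393% rose and 0.655% fell under TNF, and 0.491% and 0.524% in medium. Serpinh1, the collagen chaperone HSP47, had 825 normalised RPM in siSirt6_TNF, against 679 in siControl_TNF, and 855 in siSirt6_medium, against 743 in siControl_medium. Its log2 ratio for silencing was 0.28 under TNF and 0.20 in medium, and for TNF -0.05 with Sirt6 siRNA and -0.13 with control siRNA. Lox, which starts collagen cross-linking, had 605 in siSirt6_TNF, against 472 in siControl_TNF, and 583 in siSirt6_medium, against 476 in siControl_medium, a log2 ratio of 0.36 and 0.29 for silencing, and for TNF 0.05 and -0.01. P4hb, the beta subunit of prolyl 4-hydroxylase, had a log2 ratio of -0.04 for TNF with Sirt6 siRNA, -0.05 with control siRNA, and 0.07 for silencing under both treatments. For Plod2, a lysyl hydroxylase of telopeptides, these were 0.03, -0.13, and 0.07 under TNF with -0.09 in medium. Among 12 compared genes for propeptide removal and cross-linking, Adamts3, a procollagen N-proteinase, fell with TNF under Sirt6 siRNA (40 reads in siSirt6_TNF against 153 in siSirt6_medium, log2 -1.71) and had a log2 ratio of -0.998 under control siRNA (43 in siControl_TNF against 106 in siControl_medium), just short of the rule.

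Genes of collagen breakdown included the largest changes. Of 9 compared, 2 rose with TNF under both siRNAs and none fell, where 1.62% of all genes rose and 0.524% fell under both. Mmp13, a collagenase that cuts fibrillar collagens, had 2063 reads in siSirt6_TNF, against 507 in siSirt6_medium, and 1967 in siControl_TNF, against 470 in siControl_medium, or 4.57-fold and 5.04-fold higher. Mmp9, a gelatinase that also cuts type IV collagen, had 90 reads in siSirt6_TNF, against 2 in siSirt6_medium, and 62 in siControl_TNF, against 2 in siControl_medium (log2 4.62, 3.77 to 8.73, and 4.24, 3.32 to 8.31). Mmp9 was kept only through the TNF libraries (4.14 RPM in siSirt6_TNF and 3.30 in siControl_TNF), so the filter favoured its rise. Of 7 compared collagen receptor genes, Itga2, the alpha subunit of a collagen-binding integrin, rose with TNF under both siRNAs (252 reads in siSirt6_TNF against 48 in siSirt6_medium, log2 2.51, and 244 in siControl_TNF against 33 in siControl_medium, log2 3.08). Of 11 compared collagen-binding matrix genes, 2 fell with Sirt6 siRNA under both treatments, where 0.118% of all genes did. Both were kept only through siControl_TNF, where they reached 1.06 and 1.17 RPM, so the filter favoured their fall under TNF. Fmod, a small proteoglycan that binds fibrils, had 8 reads in siSirt6_TNF, against 20 in siControl_TNF, and 8 in siSirt6_medium, against 22 in siControl_medium (log2 -1.31 under TNF and -1.32 in medium). Postn, periostin, had 6 reads in siSirt6_TNF, against 22 in siControl_TNF, and 8 in siSirt6_medium, against 22 in siControl_medium (log2 -1.76 and -1.32).

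The median log2 ratio for TNF, with Sirt6 siRNA and then control siRNA, was -0.13 and -0.09 for the modification genes, -0.03 and -0.13 for folding and export, -0.10 and -0.04 for propeptide removal and cross-linking, -0.22 and -0.25 for breakdown, 0.04 and 0.07 for receptors and -0.18 and 0.04 for collagen-binding matrix. For silencing, under TNF and then in medium, it was 0.07 and 0.08, 0.14 and 0.04, -0.01 and 0.09, 0.24 and 0.18, -0.02 and 0.08, and -0.31 and -0.13 in the same order of lists. The breakdown list holds the 2 called genes above although its median for TNF was below 0. It also holds the protease inhibitors Timp1, Timp2 and Timp3, and each of its medians is the value of such an inhibitor. These are Timp2 for TNF under either siRNA, Timp3 for silencing under TNF and Timp1 for silencing in medium.

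Markers of other cell types moved alongside. The summed level of the smooth muscle and myofibroblast markers (4 of 5 compared) was 324 normalised RPM in siSirt6_TNF, 363 in siSirt6_medium, 387 in siControl_TNF and 454 in siControl_medium. Cnn1 fell with TNF under Sirt6 siRNA (log2 -1.67) and with Sirt6 siRNA under TNF (-1.68), and Des fell with TNF under Sirt6 siRNA (-1.43). The fibroblast sum was 1998 in siSirt6_TNF, 2179 in siSirt6_medium, 2037 in siControl_TNF and 2309 in siControl_medium, and the epithelial sum 1184, 1493, 1338 and 1811 in the same libraries. All these sums, and the mesothelial one (1813, 2182, 1688 and 2012), were lower with TNF under both siRNAs, as 12 of the 30 collagens were beyond counting error. With Sirt6 siRNA the epithelial, fibroblast and smooth muscle sums were lower and the mesothelial sum higher under both treatments, and the 6 fibrillar chains averaging 20 RPM or more were higher. Among the compared epithelial markers Krt19 went the other way (log2 0.20 under TNF and 0.06 in medium, beyond counting error), whereas Cdh1, Krt8 and Krt18 were lower. The fibroblast sum is mostly Vim, and the median log2 ratio of the 8 compared fibroblast markers for silencing was 0.09 under TNF and 0.03 in medium. That of the 3 mesothelial markers, all of them higher, was 0.10 and 0.15. Endothelial (2 of 4 compared, 9.85 to 12.6) and immune markers (1 of 4, 6.04 to 7.55) were low throughout. Their part in the collagen differences was not tested.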

How the data were processed

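Polyadenylated RNA was selected with oligo-dT and sequenced from NEBNext Ultra libraries, per the labels' protocols. The deposited table gives a read count per gene and library, per the file headers. It also gives columns headed RPKM, but each deposited value equals the count scaled to 1000000 reads per library to within 0.0005, with no gene length, so these values are RPM. CASAVA, Bowtie 1.0.1 and edgeR are named in the submitters' processing notes. The build, annotation, counter and strand setting of the counts are not given in the sources used here. Short reads from sequence shared with another gene may be split: at most 4.87% of the 50-base sequences of a compared collagen occurred in another gene. This highest value was that of Col9a3.

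Genes at 1 RPM or more in at least 1 library were kept (15274 of 29179; 7837 had no read), and libraries were scaled by TMM (edgeR 4.0.16, R 4.3.3). Log2 ratios used a prior count of 2. Intervals of ratios are exact conditional binomial 95% intervals, computed without the prior count, and shares have exact binomial (Clopper-Pearson) intervals. The difference of responses has a delta-method interval (0.5 was added to the counts). No molecular identifiers are described, so reads may be copies of one molecule, and intervals and floors hold counting error alone. No p-value was computed between 2 libraries. The labels name no batch. Additive models of siRNA and TNF with 1 residual degree of freedom (edgeR; DESeq2 1.42.0, adjusted p at most 0.05) were alternatives, beside DESeq2 size factors, library totals, no filter, a filter of 5 RPM, a fold of 1.5 and a prior count of 0.5. Transcript lengths and gene positions relative to each other are from GENCODE M21 and promoter windows from RefSeq. Collagens were named if among the 12 with the highest mean, past the size rule anywhere, or in a chain pair; further list genes if past the size rule, with Serpinh1, P4hb, Plod2 and Lox always. Col18a1 and Col27a1, and the thinly read Col13a1, Col15a1, Col25a1 and Col26a1, fall outside that rule and were chosen after their values were seen. Members and lists were chosen with earlier results of these data known. Procedures were tested on simulated data.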

Additional observations from a re-analysis of the deposited data

Results flagged for a closer look

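For 2 collagens the TNF response differed in size between the siRNAs by more than 1 on the log2 scale, with a counting interval that left out 0. The difference (Sirt6 siRNA minus control siRNA) was -1.85 for Col9a3, whose log2 ratio for TNF was -0.77 with Sirt6 siRNA and 1.08 with control siRNA, and 1.16 for Col7a1, whose ratio was 0.30 with Sirt6 siRNA and -0.85 with control siRNA. With 1 library per group neither difference was tested, and each rests on under 60 reads in every library. For Col9a3, 6.07% of exon sequence overlaps Tcfl5 on the opposite strand by the GENCODE annotation, and the strand setting of the counts is not given.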

How the results depend on the processing

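No paired analysis was possible because each group has 1 library, and for the same reason no replicate could be left out. No call changed direction, but values near 0 changed sign, among them the log2 ratio of Col4a2 for TNF with control siRNA (0.00635, below 0 with DESeq2 size factors and with library totals) and the Col1a1 difference of responses (0.0204, against -0.00546 with library totals). The median over the collagens for silencing, -0.01 under TNF and -0.04 in medium, was 0.04 and 0.03 at 5 RPM or more, and that for the difference, 0.01, was -0.02 without the filter. Scaling moved the median log2 ratio of all genes by at most 0.046. With library totals, 9 values of named collagens still left their own counting intervals. For TNF under Sirt6 siRNA, Col5a2 went from -0.06 to -0.10, Col5a1 from -0.08 to -0.13 and Col4a1 from 0.16 to 0.12. With library totals alone, 1 collagen in place of 2 rose with Sirt6 siRNA under TNF, where 57 of all 15274 genes rose. Without the filter, 1 collagen rose with TNF under Sirt6 siRNA, 2 fell with Sirt6 siRNA in medium, and 2 had a lower difference of responses. Of all genes with a read, 479, 224 and 286 did so. At 5 RPM or more, fewer genes were tested. With TNF under control siRNA 0 collagens rose and 1 fell, where 210 and 72 of all genes tested did. With Sirt6 siRNA 0 fell in medium (8 of all genes), and 1 rose and 0 fell under TNF (10 and 6 of all genes). Under both treatments 0 fell with Sirt6 siRNA. For the difference 0 passed in either direction, where 8 of all genes were higher and 10 lower. At a fold of 1.5, with TNF 4 fell under control siRNA, 1 rose and 5 fell under Sirt6 siRNA, and 2 fell under both, while with Sirt6 siRNA 1 rose and 2 fell in medium and 1 rose in both; of all 15274 genes, 681 fell with TNF under control siRNA, 676 rose and 818 fell under Sirt6 siRNA, and 226 rose and 261 fell with Sirt6 siRNA in medium. With a prior count of 0.5, 1 collagen rose and 2 fell with Sirt6 siRNA in medium, and 1 rose in both. Of all 15274 genes, 86 rose and 92 fell in medium. For these alternatives, genes passing in both comparisons were not counted over all genes. The edgeR additive model called 4 collagens higher and 11 lower with TNF, and 8 higher and 6 lower with Sirt6 siRNA, where it called 14.4%, 15.1%, 3.43% and 3.16% of all genes. The DESeq2 additive model called 0 higher and 7 lower with TNF, and 2 higher and 2 lower with Sirt6 siRNA, where it called 6.47%, 4.92%, 0.445% and 0.406% of all genes. Both models draw their p-values from a spread that is shared by genes with 1 residual degree of freedom (common biological coefficient of variation 0.0390), not on replicates. Per kilobase, the fibrillar share was 69.8% in siSirt6_TNF, 70.5% in siSirt6_medium, 65.4% in siControl_TNF and 67.3% in siControl_medium. The counts beyond counting error in both comparisons stayed within 1.5 times under the alternative scalings, filters, fold and prior count. With library totals, 13 were lower with TNF and 8 higher with Sirt6 siRNA in both comparisons. The additive models do not give this count. The cause of these changes was not tested. Collagens under about 100 reads per library, which include most of those past the size rule, have wide intervals.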
